A study of Mus musculus with 6 samples.

Results

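The genes described here encode the invariant chains of the T cell receptor complex and the first enzymes and adaptors of its signal. They were chosen by name, as the non-control array spots whose gene symbol is Cd3d, Cd3e, Cd3g, Cd247, Lck, Zap70, Lat, Lcp2 or Fyn. These 9 genes are measured by 12 probes, out of 55681 distinct probes for 34741 gene names on the array. RNA came from spleens of B10.BALB-16.C2A mice, a congenic strain. The control group was resting mice given 0 cGy, and the other group was taken 24 h after total body irradiation with 900 cGy from an X-ray cabinet (XRAD320); no other treatment or allele is named for either group. Each array carried RNA pooled from 3 mice, extracted from homogenised whole splenocytes, and each group had 3 arrays on an Agilent one-colour platform. Nothing in the labels says whether the 3 arrays of a group came from separate sets of mice, so the p-values measure the spread between these arrays, which may be technical.

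The T cell receptor has no enzyme of its own. Its variable alpha and beta chains bind antigen, and the CD3 delta, epsilon and gamma chains with the zeta chain (CD247) carry the signal into the cell through tyrosines in immunoreceptor tyrosine-based activation motifs (ITAMs). The Src family kinases LCK and FYN phosphorylate these tyrosines, the kinase ZAP70 docks on them and phosphorylates the scaffold LAT, and LAT together with the adaptor SLP-76 (gene Lcp2) gathers the enzymes that raise calcium and switch on Ras. The CD3 chains, LCK, ZAP70 and LAT are used mainly by T cells, with the zeta chain, LCK, ZAP70 and LAT also present in natural killer (NK) cells. FYN and SLP-76 are used more widely, SLP-76 also in platelets, mast cells and other myeloid cells.

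Several of the array's 60-base probes lie on the signalling motifs themselves, which are printed to show what part of each messenger the values come from. All probe positions are on mouse build mm9, as the array files give them. The Cd3d probe (A_51_P285206, chr9:44794171-44794402, plus strand) covers 232 bases of the genome with its 60 bases, so it joins exons, and the 15 codons of the CD3 delta ITAM are in capitals, bases 8 to 52. The main Cd247 probe (A_52_P173555, chr1:167786567-167787585, plus strand) also joins exons, over 1019 bases of the genome, and the capitals mark 15 codons of a zeta chain ITAM, bases 16 to 60. In the Lat probe (A_51_P495242, chr7:133507719-133507778, minus strand) the capitals mark 3 codons for tyrosine, any residue and asparagine, bases 36 to 44, the motif type to which the GRB2 and GADS adaptors bind. The other Cd247 probe (A_55_P2212968, chr1:167800324-167800383, plus strand) had no ITAM match in its 1 forward reading frame without a stop codon. The motif marked in the Lat probe was not assessed there. Its first 30 bases are given because the values of this other probe differ from those of the ITAM probe. That probe is annotated to 3 RefSeq transcripts of Cd247 (NM_001113394, NM_001113393 and NM_001113392), and the ITAM probe to a different one (NM_031162).
Cd3d: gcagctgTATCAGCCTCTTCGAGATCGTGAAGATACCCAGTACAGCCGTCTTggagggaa
Cd247, ITAM probe: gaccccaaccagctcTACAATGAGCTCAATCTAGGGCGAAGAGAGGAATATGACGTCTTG
Lat: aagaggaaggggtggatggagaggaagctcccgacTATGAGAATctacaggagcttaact
Cd247, other probe, first 30 bases: aaacccccaacccattcatagggaatatca

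At 900 cGy, 7 of the 9 genes were lower than at 0 cGy, namely Cd3d, Cd3e, Cd3g, Cd247, Lck, Zap70 and Lat, by between 2.47-fold and 4.34-fold. Lcp2 was 2.32-fold higher, and Fyn did not pass the test. The 4 invariant chains fell by the probes that represent them, but the other probe of Cd247 did not fall (0.25). Of the 3 kinases 2 fell, and the 2 adaptors moved in opposite directions. Calls are from limma over all probes, with Benjamini-Hochberg adjustment and a threshold of 0.05, and a gene is represented by its probe with the highest mean. Across the array 30.6% of the 26642 genes tested were called lower and 28.0% higher, so a single call in either direction was common. The median log2 change of the 9 genes was -1.45, against -0.06 over all genes tested. No array of one group overlapped the other in any of the 7 genes that fell, where 35.7% of all genes had every irradiated array below every control, nor in Lcp2, where 31.7% had every irradiated array above. By probe, 8 of the 12 were lower (31.0% of all probes tested were), 2 were higher (26.4% of all probes were), and 2 did not pass.

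**Figure D1:**
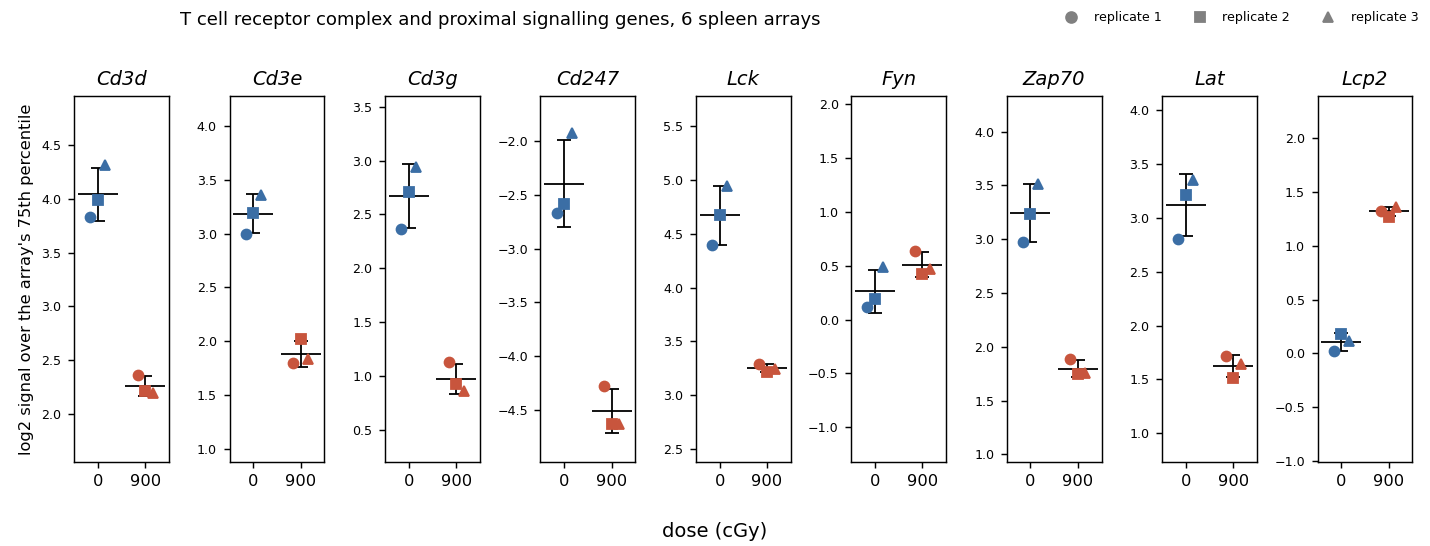
Each panel shows 1 gene, with the log2 signal relative to the array's 75th percentile on the vertical axis (own range, same height in log2 units) and the dose in cGy on the horizontal axis; points are arrays with the replicate as the symbol, and bars are the mean and SD of 3 arrays. The irradiated arrays lie below the controls for Cd3d, Cd3e, Cd3g, Cd247, Lck, Zap70 and Lat, above them for Lcp2, and overlap them for Fyn.

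Between 39034 and 41266 probes were well above background per array, the most in control replicate 3, and no spot was saturated. The 75th percentile of the signal was 1403 on control replicate 3 and 1114 to 1182 on the other arrays. Spike-in controls lay 2.74, 3.10 and 2.85 log2 units above it in control replicates 1 to 3. In irradiated replicates 1 to 3 they lay 3.07, 3.31 and 3.17 above it. All 6 were scanned together on 1 slide, with the 3 controls and irradiated replicate 1 in one row and irradiated replicates 2 and 3 in the other. Each value below is a log2 signal minus the log2 of the array's 75th percentile, so levels are comparable between arrays for 1 probe and not between probes. Scaling the arrays to the spike-in controls in place of the 75th percentile moved the median change over all genes from -0.06 to -0.34, and each gene's change moved down with it. All 12 probes were well above background on all 6 arrays. In whole-spleen RNA, fewer cells of a type and less RNA per cell cannot be told apart. All 14 T cell markers and all 9 B cell receptor genes listed further on were well above background on every array, as the spleen label requires.

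Of the invariant chains, Cd3d encodes CD3 delta, which pairs with CD3 epsilon in the receptor. Its log2 signal was 3.83, 3.99 and 4.31 in control replicates 1 to 3 and 2.36, 2.21 and 2.19 in the irradiated ones. The lowest control lay 1.47 above the highest irradiated array. The log2 change was -1.78 ± 0.14 (SE, n = 3 arrays per group), a 3.45-fold fall (limma adjusted p = 0.00015). Cd3g encodes CD3 gamma, which sits in the complex opposite CD3 delta. It measured 2.36, 2.71 and 2.95 in the controls and 1.13, 0.93 and 0.85 after irradiation (probe A_55_P2072771, chr9:44777868-44777927, minus strand). These groups were also apart, and the change was -1.70 ± 0.17 (3.25-fold lower, limma adjusted p = 0.000299).

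Cd3e encodes CD3 epsilon, the chain present in both CD3 dimers and the target of most stimulating anti-CD3 antibodies. Its log2 signal was 3.00, 3.20 and 3.36 in the controls and 1.80, 2.02 and 1.83 after 900 cGy (probe A_55_P2156229, chr9:44806828-44806887, minus strand). All irradiated arrays were lower than all controls. The change was -1.30 ± 0.12, a 2.47-fold fall (limma adjusted p = 0.000274) and the smallest of the 7 falls. Cd3d, Cd3e and Cd3g are neighbours on chromosome 9, and their changes ran from -1.78 to -1.30.

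Cd247 encodes the zeta chain, which carries more ITAMs than any other chain of the complex. The ITAM probe printed above gave -2.67, -2.58 and -1.93 in the controls and -4.28, -4.64 and -4.63 after irradiation. The change was -2.12 ± 0.22 (4.34-fold lower, limma adjusted p = 0.000373), with no overlap between the groups. The signal of this probe lay below the array's 75th percentile on every array, and the size of its change depended on the background correction. With normexp correction the change was -1.31, still past the threshold. The other Cd247 probe did not fall. It gave -3.74, -3.72 and -3.46 in the controls and -3.56, -3.24 and -3.39 after irradiation, and these groups overlapped. Its change of 0.25 ± 0.13 did not pass the test (limma adjusted p = 0.14) and was -0.04 with spike-in scaling. Averaging the 2 probes gave Cd247 a change of -0.94, past the threshold in the direction of the ITAM probe. The ITAM probe represents Cd247 as the brighter over all arrays, but only through the controls. Its mean was -2.40 in the controls and -4.51 after irradiation, against -3.64 and -3.39 for the other probe.

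**Figure D2:**
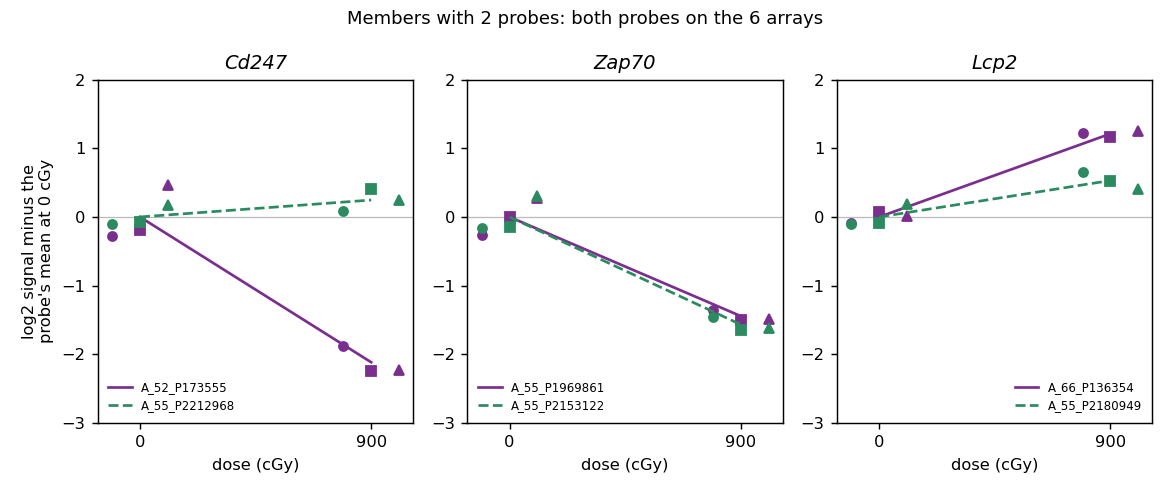
For the 3 genes with 2 probes, the log2 signal of each probe minus its mean at 0 cGy is plotted against dose in cGy; points are arrays (circle, square and triangle for replicates 1, 2 and 3), lines join group means, and colours are probes. The Zap70 probes ran together, the Lcp2 probes rose by different amounts, and the Cd247 probes parted, at -2.12 and 0.25.

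Lck encodes the Src family kinase that binds the tails of CD4 and CD8 and starts ITAM phosphorylation. Its log2 signal was 4.40, 4.68 and 4.94 in the controls and 3.29, 3.22 and 3.24 after irradiation (probe A_55_P2155504, chr4:129225614-129225673, minus strand). The irradiated arrays were tightly grouped, 1.11 below the lowest control. The change was -1.42 ± 0.15, a 2.68-fold fall (limma adjusted p = 0.000356). Zap70 encodes the kinase that docks on phosphorylated ITAMs. Its brighter probe (A_55_P1969861, chr1:36839542-36839601, plus strand) gave 2.98, 3.24 and 3.52 in the controls and 1.89, 1.75 and 1.76 after irradiation. The change was -1.45 ± 0.15 (2.72-fold lower, limma adjusted p = 0.000359). The neighbouring probe (A_55_P2153122, chr1:36839315-36839374, plus strand) gave -1.57 ± 0.15 (2.97-fold lower, limma adjusted p = 0.000282), so the probes of Zap70 were close in size and direction.

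Fyn encodes the other Src family kinase of the proximal signal. It behaved unlike Lck. Its log2 signal was 0.11, 0.19 and 0.49 in the controls and 0.64, 0.42 and 0.47 after irradiation (probe A_66_P138915, chr10:39284572-39284631, plus strand). Control replicate 3 lay above irradiated replicates 2 and 3, so the groups overlapped. The change of 0.25 ± 0.13 did not pass (limma adjusted p = 0.149). Without control replicate 3 it was 0.36 and passed (limma adjusted p = 0.026), and with spike-in scaling it was -0.04 (limma adjusted p = 0.878). The difference of change between Lck and Fyn, computed within each array, was -1.67 ± 0.08.

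Lat encodes the membrane scaffold whose tyrosines ZAP70 phosphorylates. Its signal was 2.80, 3.21 and 3.36 in the controls and 1.72, 1.51 and 1.65 after irradiation. The groups were apart, and the change was -1.50 ± 0.16 (2.83-fold lower, limma adjusted p = 0.000395). Lcp2 encodes SLP-76, which LAT recruits through the adaptor GADS. Its brighter probe (A_66_P136354, chr11:33992133-33992192, plus strand) gave 0.02, 0.18 and 0.12 in the controls and 1.33, 1.27 and 1.36 after irradiation. Here every irradiated array was above every control, by at least 1.09 log2 units. The change was 1.21 ± 0.09, a 2.32-fold rise (limma adjusted p = 0.000113).

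The other Lcp2 probe (A_55_P2180949, chr11:33989870-33989929, plus strand) is annotated to an Ensembl transcript and rose less. It measured -0.38, -0.36 and -0.09 in the controls and 0.38, 0.24 and 0.14 after irradiation. Its groups were apart by 0.22, and the change of 0.53 ± 0.12 passed (limma adjusted p = 0.00921). With spike-in scaling it was 0.24 and did not pass (limma adjusted p = 0.324). The brighter Lcp2 probe stayed past the threshold there, at 0.93.

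Set against all genes, the falls were large without being extreme. Cd247 had a lower change than all but 2.22% of the genes tested, Cd3d all but 3.33% and Cd3e all but 5.96%. The percentages were 3.70 for Cd3g, 4.71 for Lat, 4.98 for Zap70 and 5.13 for Lck. For Fyn 66.9% of genes had a lower change, and for Lcp2 89.2%.

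Among the controls, replicate 3 was the highest array for each of the 7 genes that fell. Over the 9 genes its level exceeded the mean of control replicates 1 and 2 by a median of 0.40 log2 units, against -0.00223 over all genes tested. By the same measure it stood at 1.46 in exocrine pancreas markers, where control replicates 1 and 2 were far apart. Their summed level was 2.04, 95.7 and 16.7 in control replicates 1 to 3, so replicate 2 was the highest there. Against that mean, control replicate 3 was 0.47 above in T cell markers and 0.44 above in NK cell markers. Control replicate 3 was 1.37 below in erythroid markers (-1.37) and 0.58 below in platelet markers (-0.58). Without it, each of the 7 genes that fell and Lcp2 kept its call. In the slide row that holds both groups, the 7 changes ran from -1.88 for Cd247 to -1.35 for Zap70 and Lcp2 changed by 1.22. That row has 1 irradiated array, so its spread is not measured there. The part of the makeup of control replicate 3 in the size of the changes was not tested.

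Relatives of these genes serve other receptors, and 13 of them were listed to compare with. Of these 13, 6 rose, 5 fell and 2 did not pass, where 28.0% of all genes tested rose and 30.6% fell. The median change of the 13 was 0.30. The zeta chain's relatives went both ways. Fcer1g, the shared gamma chain of Fc receptors, measured 5.66, 5.42 and 5.28 in the controls and 6.73, 6.75 and 6.80 after irradiation, a rise of 1.31 ± 0.12. Tyrobp (DAP12), an ITAM adaptor of NK and myeloid receptors, rose by 1.17 ± 0.10. Hcst (DAP10), an adaptor of the NKG2D receptor that has no ITAM, changed by -0.87 ± 0.09. The limma adjusted p was 0.000218 for Fcer1g, 0.00017 for Tyrobp and 0.000395 for Hcst.

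Of the 6 other Src family kinases listed, 4 rose. Yes1 and Src, which are broadly expressed, changed by 1.46 ± 0.13 and 0.99 ± 0.14, and Fgr, a myeloid kinase, by 0.86 ± 0.09. Blk, a B cell kinase, fell the most, from -0.27, -0.14 and 0.24 to -2.61, -2.84 and -2.61, a change of -2.63 ± 0.15. Lyn, shared by B and myeloid cells, gave 0.30 ± 0.13 and did not pass (limma adjusted p = 0.0838). The limma adjusted p was 7.89e-05 for Blk, 0.000214 for Yes1, 0.000362 for Fgr and 0.00117 for Src.

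Syk, the relative of Zap70 used by B and myeloid cells, measured 4.54, 4.74 and 4.87 in the controls and 4.32, 4.27 and 4.30 after irradiation. Its change was -0.42 ± 0.11 (limma adjusted p = 0.0147), against -1.45 for Zap70. Lat2, the LAT-like adaptor of B and mast cells, changed by -1.97 ± 0.13 (limma adjusted p = 8.98e-05), against -1.50 for Lat. Blnk, the B cell counterpart of SLP-76, went from 5.24, 5.52 and 5.68 to 4.19, 4.44 and 4.49, a change of -1.11 ± 0.15 (limma adjusted p = 0.000934). Clnk, a SLP-76 relative described in mast cells, gave 0.24 ± 0.10 and did not pass (limma adjusted p = 0.082), with the sign turned under spike-in scaling (-0.05).

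**Figure D3:**
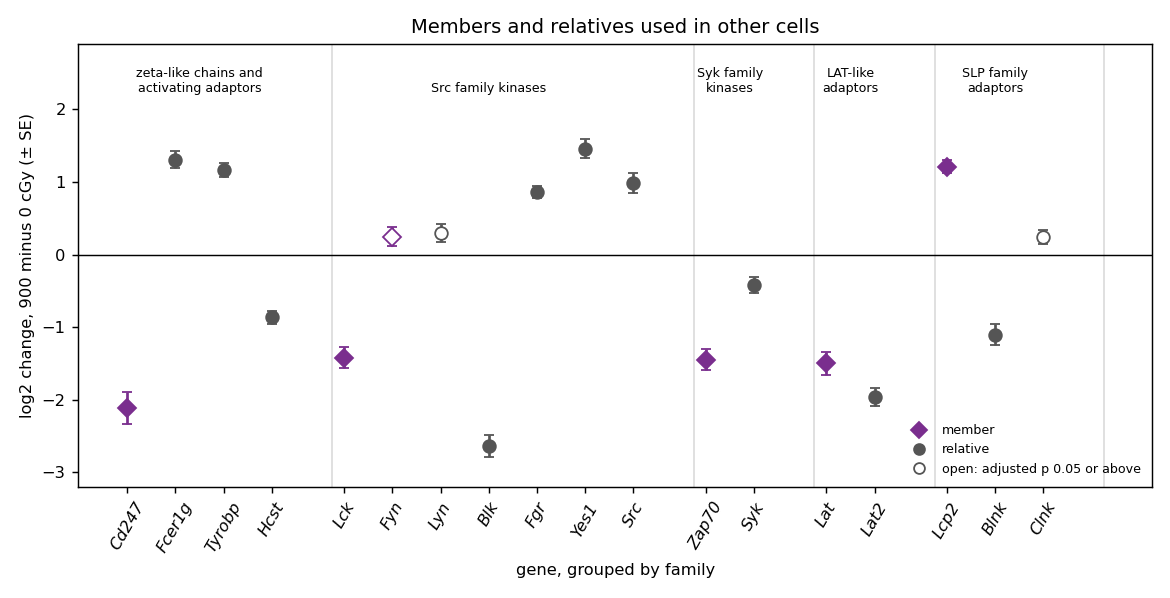
The log2 change, 900 minus 0 cGy, is shown with its SE for genes of the complex (diamonds) and the relatives named in the text (circles), grouped by family, and open symbols mark an adjusted p of 0.05 or above. Within the Src family the changes run from -2.63 for Blk to 1.46 for Yes1, and Lcp2 (1.21) and Blnk (-1.11) lie on opposite sides of 0.

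Differences of change were taken within each array for 9 pairs of genes, and a scaling by 1 factor per array leaves them unaltered. In all 9 pairs the irradiated arrays lay wholly to one side of the controls. The pairs were chosen with earlier results known, and the share over other pairs of genes was not computed. Among single genes 35.7% had every irradiated array below every control and 31.7% above, so separation was common. The exact two-sided permutation test gave p = 0.1 for each (adjusted over the 9 pairs, 0.1), the smallest p that 3 arrays against 3 allow, so no pair could reach 0.05. The difference was -3.42 ± 0.36 log2 units for the ITAM probe of Cd247 minus Fcer1g, -1.72 ± 0.05 for Lck minus Lyn and -1.02 ± 0.07 for Zap70 minus Syk. With the mean over both Cd247 probes, Cd247 minus Fcer1g was -2.24. For Lat minus Lat2 it was 0.47 ± 0.05, the change of Lat2 being the more negative. Lcp2 minus Blnk differed by 2.32 ± 0.14. Within the T cell pathway, Cd3e minus Lcp2 gave -2.52 ± 0.13 and Cd3e minus Fyn -1.55 ± 0.14. For Cd3e minus Cd79a, a signalling chain of the B cell receptor, it was 1.52 ± 0.14, the change of Cd79a being the more negative.

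The variable chains of the T cell receptor are covered by 10 probes, of which 6 were bright enough to test. Of these, 4 fell, 0 rose and 2 did not pass, where 31.0% of all probes tested fell and 26.4% rose. Trav14n-1, an alpha chain variable segment, went from -2.73, -2.74 and -2.00 to -4.94, -5.24 and -5.36, a change of -2.69 ± 0.23 (6.44-fold lower, limma adjusted p = 0.000182). Trav3n-3 changed by -2.14 ± 0.25 (limma adjusted p = 0.000613) and the probe named Tcrb-J by -1.45 ± 0.20 (limma adjusted p = 0.00119). The fourth was Trav9d-3 (-0.84), and the probes named Tcra (-0.68) and Tcrg-V1 (-0.30) did not pass. These segments have near-identical family copies, so which copies a probe reads is uncertain.

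Further down the cascade, 26 effectors were listed. Of these 17 fell, 3 rose and 6 did not pass, where 30.6% of all genes tested fell and 28.0% rose. The median change of the effectors was -0.77. The 3 with the largest changes were adaptors. Trat1, a transmembrane adaptor that binds the receptor complex, went from -1.89, -1.48 and -0.87 to -3.57, -4.00 and -3.95, a change of -2.42 ± 0.27. Grap2, which encodes GADS, the link between LAT and SLP-76, went from 2.25, 2.37 and 2.71 to 0.47, 0.15 and 0.32, a change of -2.13 ± 0.15. Themis, which regulates signalling in developing thymocytes, changed by -1.89 ± 0.20. The limma adjusted p was 0.000469, 0.000113 and 0.000431. Grap2 fell while Lcp2, whose product it carries to LAT, rose.

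The 3 effectors that rose were also adaptors. Fyb, which encodes ADAP and links SLP-76 to integrin control, went from 2.53, 2.68 and 2.75 to 3.43, 3.36 and 3.46, a rise of 0.76 ± 0.09 (limma adjusted p = 0.000715). Nck1, an SLP-76 partner that acts on the actin cytoskeleton, rose by 0.61 ± 0.11 (limma adjusted p = 0.0031), a call lost with spike-in scaling (0.33). Nck2, its close relative, rose by 0.98 ± 0.28 (limma adjusted p = 0.0221), but averaging its probes gave -0.07. By role, 7 of 11 adaptors and scaffolds fell and 3 rose, where 30.6% of all genes tested fell and 28.0% rose. Among those that fell was Unc119 (-0.24), a call kept in 7 of 18 alternatives. Of the 4 kinases 3 fell (among them Txk at -0.99 and Prkcq at -0.90) and Itpkb did not pass. Of the 5 enzymes and exchange factors 3 fell (Rasgrp1 at -1.29, Ptprc at -0.65 and Vav1 at -0.26, a call kept in 7 of 18 alternatives) and Sos1 and Plcg1 did not pass. Of the 6 downstream transcription components 4 fell (among them Malt1 at -1.47, Nfatc3 at -1.30 and Nfatc1 at -0.48, a call kept in 10 of 18 alternatives) and Nfatc2 and Bcl10 did not pass. Unc119 and the kinases, enzymes and downstream genes are named to complete the counts, after their values were seen.

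Of 18 genes that restrain the signal, 12 fell, 1 rose and 5 did not pass, with a median of -0.79, where 30.6% of all genes tested fell. Sit1, an inhibitory transmembrane adaptor, went from 0.14, 0.29 and 0.73 to -2.14, -2.02 and -1.83, a change of -2.39 ± 0.17. Dgka, the kinase that removes diacylglycerol, changed by -2.06 ± 0.17, and Cd6, a surface receptor of T cells, by -1.93 ± 0.17. Their limma adjusted p was 0.000119, 0.000155 and 0.000216. The gene that rose was Dok1, an adaptor that recruits negative regulators of Ras, by 0.60 ± 0.08 (limma adjusted p = 0.000879), a call lost with spike-in scaling (0.31). Among the 9 adaptors and surface proteins 6 fell. Among the 5 kinases and phosphatases 3 fell: Ubash3a (-1.68), Csk, which phosphorylates and inhibits LCK (-0.89), and Ptpn6, the phosphatase SHP-1 (-0.73). Among the 4 ubiquitin ligases and lipid kinases 3 fell, Dgka, Cbl (-0.48, a call kept in 14 of 18 alternatives) and Dgkz (-0.40, in 12 of 18). The 5 that did not pass were Sla, Dok2, Ptpn22, Ubash3b and Cblb. Apart from Dgka, the genes of these last 3 sentences were named after their values were seen.

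The T cell genes were then set beside marker lists of the cells that a spleen pool can hold. Of 14 T cell markers 12 fell, 1 rose and 1, Ccr7 (-0.37), did not pass, where 30.6% of all genes tested fell. Among those that fell, Gata3 (-0.65), named after its value was seen, kept its call in 9 of 18 alternatives. The median of the markers was -1.89, so the T cell receptor genes, at -1.45, had the smaller median fall. The summed linear level of the 14, in units of each array's 75th percentile, was 102 to 144 in the controls and 47.0 to 53.0 after irradiation. Such a sum weighs the brightest probes of a list most, and levels are not comparable between probes. Cd8b1 and Cd8a, the CD8 co-receptor chains, changed by -3.98 ± 0.12 and -2.77 ± 0.15, and Lef1, which with Tcf7 sets T cell identity, by -3.17 ± 0.19. Cd4, the other co-receptor, measured 2.26, 2.33 and 2.50 in the controls and 2.60, 2.63 and 2.78 after irradiation. Its rise of 0.31 ± 0.10 passed the threshold (limma adjusted p = 0.0397) but kept that call in only 5 of 18 alternatives and was -0.02 when its probes were averaged. The 2 co-receptors that bind LCK thus had different values, and their difference was not tested.

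Genes of B cell receptor signalling fell as well, among them Cd79a (-2.82 ± 0.10) and Blk. The count was 8 of 9 with a median of -1.11, where 30.6% of all genes tested fell. The summed level of these 9 B cell genes was 307 to 378 in the controls and 103 to 110 after irradiation. NK cell markers had no common direction, with counts near the 28.0% of all genes tested that rose and the 30.6% that fell. Of 9, 3 rose (Ncr1 at 0.65, Gzma at 0.57 and Klrk1 at 0.52), 2 fell (Klrd1 at -1.34 and Eomes at -0.73) and 4 did not pass. The 3 that rose did not pass with spike-in scaling, at 0.36, 0.28 and 0.23, and only 1 marker was called higher without control replicate 2 or without irradiated replicate 3. The summed level of the 9 markers was 33.7 to 38.7 in the controls and 35.6 to 41.4 after irradiation. It came mostly from Gzma and Nkg7, the brightest of the 9, with mean log2 levels of 3.86 and 3.83 in the controls. The summed level of the 9 T cell receptor genes was 65.5 to 93.0 in the controls and 29.9 to 31.7 after irradiation.

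Markers of macrophages and platelets, cells that use SLP-76 outside the T lineage, were set beside Lcp2, with no list for mast cells. Of all genes tested, 28.0% rose. All 9 macrophage markers rose, with a median of 1.89, led by Cd5l (2.75 ± 0.09), C1qb (2.18 ± 0.11) and Cd68 (2.07 ± 0.09), and their summed level went from 221 to 239 up to 760 to 779. Of 6 platelet markers only Itga2b passed (0.47 ± 0.16, limma adjusted p = 0.0473), at a list median of 0.22, and its call held in 9 of 18 alternatives. The summed platelet level was 110 to 179 in the controls and 156 to 177 after irradiation. Stromal and endothelial markers, listed as other spleen cells and not as users of SLP-76, rose in 7 of 8 (all but Pecam1). They had a median of 1.33, led by Pdpn (2.85 ± 0.23), Dcn (2.01 ± 0.17) and Kdr (1.53 ± 0.09). The part of these cells in the changes of Lcp2, Fyn and the genes that fell was not tested.

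**Figure D4:**
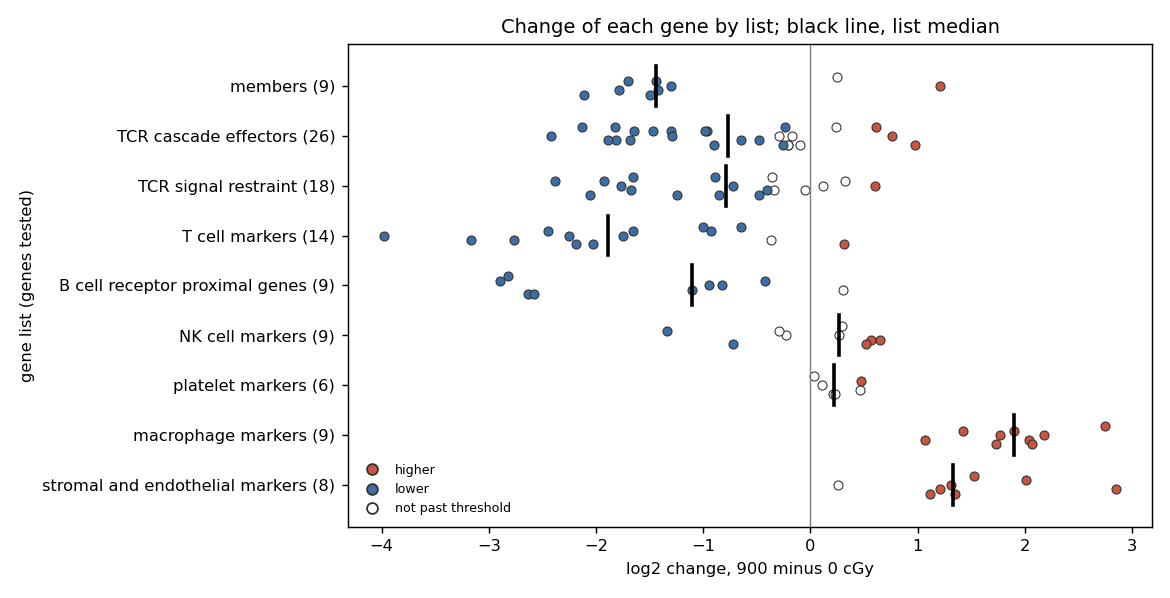
Each point is the log2 change of 1 gene, 900 minus 0 cGy, on the horizontal axis, with 1 row per gene list (number of genes tested in brackets), the list median as a black line, and colour for the call. The 9 T cell receptor genes have a median of -1.45 and the 14 T cell markers one of -1.89, while the 9 macrophage markers have one of 1.89.

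Lists of other tissues and blood cells moved further, where 28.0% of all genes tested rose and 30.6% fell. All 9 exocrine pancreas markers rose, with a median of 7.18, led by Cela2a (8.32 ± 2.15), Pnlip (8.0 ± 2.48) and Pnliprp1 (7.26 ± 1.52), all digestive enzymes or lipase relatives. Their limma adjusted p was 0.0155, 0.0308 and 0.0067, and Pnlip kept its call in 11 of 17 alternatives, over a range from 4.92 to 10.1. Only 2 of the 9 were called higher with the slide row as a block or in row 1 alone, and 5 without irradiated replicate 2. The summed level of the 9 was 2.04, 95.7 and 16.7 in control replicates 1 to 3 and 958 to 1277 after irradiation. All 7 erythroid markers fell, with a median of -6.69, among them Kel (-8.02) and Rhd, at least 362-fold lower. Their summed level went from between 135 and 329 to between 8.06 and 13.1. Cela2a and Pnlip were well above background on 2 of the 3 controls. The part of either list in the T cell results was not tested.

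Every gene was ranked by how close its profile over the 6 arrays came to that of the invariant chains. The measure was the root mean square distance between a gene's levels, centred on their mean, and the mean centred profile of Cd3d, Cd3e, Cd3g and Cd247, among 26627 other genes. The 5 closest were Map4k2 (0.0589), Tcf7 (0.0602), Cd5 (0.0624), Gimap1 (0.0665) and Kynu (0.0668). Tcf7 is a T cell transcription factor, Cd5 an inhibitory surface receptor of T cells, Gimap1 a GTPase needed by lymphocytes, Map4k2 a serine/threonine kinase and Kynu an enzyme of tryptophan breakdown. Their log2 changes ran from -1.61 for Kynu to -1.77 for Cd5. The distance takes in the size of the change, so a gene that changed about as much as the chains ranks close. The chains are part of the mean profile, which by itself draws their own distances down. Among these chains, Cd3d lay at 0.0369, Cd3g at 0.054, Cd247 at 0.226 and Cd3e at 0.242. Zap70, Lat and Lck lay between, at 0.145, 0.146 and 0.161, and Fyn and Lcp2 far outside, at 0.988 and 1.48.

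The 250 bases before the start sites of the 9 genes were searched for a motif, using the RefSeq promoter table on GRCm38.p6. It holds 12 starts for these genes. The motif was CAGGAAGT or, on the other strand, ACTTCCTG, and it was chosen after these sequences were seen. It is a longer run that holds GGAA, the core to which ETS family factors bind. Only the whole run was counted, so other sites with GGAA are not covered. It was present before 4 of the 12 starts, those of 3 of 9 genes, against 884 of 32851 promoters (2.69%) and 3.13% of 27025 genes. Since the motif was picked from these same sequences, this comparison cannot show an enrichment. The motif was absent before every start of Cd3d, Cd3g, Zap70 and Lat, which also fell, and of Fyn and Lcp2. Cd3e held it 18 bases before the start, Cd247 58 bases before, and Lck 115 and 11 bases before its 2 starts. The 3 sequences show it in capitals, for Cd3e (chr9:45009612-45009861, minus strand), Cd247 (chr1:165788431-165788680, plus strand) and the Lck start with the match at 115 bases (chr4:129558373-129558622, minus strand). A match is a run of letters only, and no binding was measured.
Cd3e: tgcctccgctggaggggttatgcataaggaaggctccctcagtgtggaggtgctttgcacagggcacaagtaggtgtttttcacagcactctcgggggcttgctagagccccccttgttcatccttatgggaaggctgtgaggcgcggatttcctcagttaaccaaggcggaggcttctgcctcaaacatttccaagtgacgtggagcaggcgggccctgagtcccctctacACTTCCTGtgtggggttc
Cd247: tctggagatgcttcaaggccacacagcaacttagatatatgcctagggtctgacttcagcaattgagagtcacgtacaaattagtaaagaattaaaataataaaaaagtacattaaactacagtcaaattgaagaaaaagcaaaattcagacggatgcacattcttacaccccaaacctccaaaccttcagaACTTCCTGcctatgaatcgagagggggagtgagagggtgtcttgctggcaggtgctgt
Lck: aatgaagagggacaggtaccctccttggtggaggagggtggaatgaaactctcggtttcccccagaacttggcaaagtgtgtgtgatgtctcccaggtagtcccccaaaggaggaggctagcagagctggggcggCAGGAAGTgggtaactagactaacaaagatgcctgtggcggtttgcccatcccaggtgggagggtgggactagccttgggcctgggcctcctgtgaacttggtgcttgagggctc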

How the data were processed

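Pooled spleen RNA was measured on 6 Agilent one-colour (Cy3) arrays. Per the file headers, the scans went through Agilent Feature Extraction 10.5.1.1, and the deposited spot intensity used here is the processed signal, background-subtracted and detrended within the array and not normalized between arrays. The log2 values that the authors deposited in their own table matched the scanner values after scaling (Pearson r at least 0.99996 per array). They were scaled to the 75th percentile and centred per probe, in the same direction, with column medians between -0.0467 and 0.0472. It was used as an alternative.

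Control spots and outlier spots were left out, and spots of 1 probe averaged. Log2 processed intensity minus the log2 of the array's 75th percentile was compared with limma 3.58.1 in R 4.3.3 (lmFit, eBayes, two-sided, no covariate, all 6 arrays). A probe was kept if each of the 3 arrays of a group had it well above background, which left 39683 probes of 26642 genes. Benjamini-Hochberg adjustment ran over all of these. A gene is represented by its brightest probe. Where a group had no array well above background, its fold is a bound, computed from the larger of its own signal and the lowest signal called above background on that array. Of 55681 probes, 27235 were named by accession, 3581 by symbol and 565 by synonym with RefSeq's GRCm38.p6 gene table, and the other 24300 have the array design's own name. Sequences are from the array files and RefSeq. The fit was tested on simulated data.

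Sample titles gave the groups and the replicate numbers. The members, lists, pairs and tests were chosen with earlier results of these data known. Named are all members and relatives, the 3 largest changes past the threshold in each list, any gene past it against its list's median, the 3 largest changes among variable chain probes, and the 5 nearest profiles; a few genes that this rule or a count takes in are not reported here by name. The 18 alternatives were normexp (offset 50), quantile, median and spike-in scaling, 2 other filters, the authors' table, 1 probe per gene, the mean over probes, a replicate block, the slide row as a block or 1 row alone, and leaving out each array. The number of arrays limits the precision.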

Additional observations from a re-analysis of the deposited data

How the results depend on the processing

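Under all 18 alternatives Cd3d, Cd3e, Cd3g, Cd247, Lck, Zap70 and Lat stayed lower and Lcp2 higher, each past the threshold. The closest of these calls, Zap70 in slide row 1 alone, had a limma adjusted p of 0.0223. Spike-in scaling reversed Fyn (-0.0411) and the other Cd247 probe (-0.0406), and left 4751 genes and 6552 probes called higher. It took the restraint genes called higher to 0. The single T cell marker called higher (Cd4) fell to 0 with normexp, quantile, median and spike-in scaling, no filter, the mean over probes, the slide row as a block and row 1 alone, and ran from 0 to 1 on leaving out 1 array. In slide row 1 alone, which has 1 irradiated array whose spread is assumed to be that of the controls, 3661 genes and 5683 probes were lower and 4399 genes and 6056 probes higher, with 1 cascade effector and 0 restraint genes higher, Lck minus Lyn at -1.66 and Lcp2 minus Blnk at 2.50. Normexp gave Cd247 minus Fcer1g as -2.65. The mean over probes gave it as -2.24, Zap70 minus Syk as -0.88, Lcp2 minus Blnk as 1.98 and Cd3e minus Lcp2 as -2.18. Leaving out 1 array gave 1 to 2 members called higher and 0 to 1 B cell receptor genes called higher; the upper values came without control replicate 3, where Fyn and Lyn passed. Exocrine pancreas markers called higher went from 9 to 2 with the slide row as a block and in row 1 alone, and to 5 without irradiated replicate 2. The causes were not tested.

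Deviations of same-numbered arrays correlated weakly, at 0.0698, 0.109 and -0.00833, and 4 of 6 arrays were closest to their own number. These values do not settle whether same-numbered arrays share more than a number. With the replicate block 7 members were lower and 1 higher, with 7419 genes lower and 7056 higher. Because row 2 holds irradiated arrays only, row and dose are partly confounded. The size of the change of dim probes, such as those of Cd247, depends on the background correction, and that of the other Cd247 probe has no settled direction. Genes whose folds are bounds, such as Rhd, depend on the background setting.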
